A study of Mus musculus with 14 samples.

Results

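Transcripts of insulin-like growth factor 1 (Igf1), its receptor (Igf1r) and the 7 IGF binding proteins (Igfbp1 to Igfbp7) were followed in mouse kidney after renal ischemia/reperfusion injury (IRI). These 9 genes were taken by symbol from the 24411 genes counted. All mice were male, of the C57/B6 strain and 8 weeks old, and carried no allele that the labels name. Whole-kidney bulk RNA sequencing covered 4 libraries of day 0, which received no named treatment, and 5 libraries each of day 1 and day 3 after renal IRI. Day 0 libraries are named as controls, and the sources used here do not give whether their mice had a sham operation. Nothing states that replicates came from separate mice, so each p-value measures only the spread between these libraries.

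IGF1 is a growth hormone-dependent peptide made in the liver and within the kidney, and it signals through the receptor tyrosine kinase IGF1R to the PI3K and AKT pathway. IGF binding proteins hold IGF1 and IGF2 outside the cell, lengthen their stay and set how much free ligand reaches the receptor, and several of them also act without IGF. IGFBP3 and IGFBP5 join IGF and the acid-labile subunit in the circulating ternary complex, whereas IGFBP7 binds IGF weakly and is best known in the kidney as a urinary marker of tubular stress.

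By the GENCODE annotation of the GRCm38 build, Igf1 lies at chr10:87858265-87937042 and Igf1r at chr7:67952827-68233668, both on the plus strand. Igfbp1 (chr11:7197782-7202546, plus strand) and Igfbp3 (chr11:7206086-7213923, minus strand) are neighbours that end towards each other with 3539 bases between them. Igfbp2 (chr1:72824503-72852474, plus strand) and Igfbp5 (chr1:72857932-72874884, minus strand) form a second such pair with 5457 bases between them. Igfbp4 lies at chr11:99041244-99054392 and Igfbp6 at chr15:102144362-102149511, both on the plus strand, and Igfbp7 at chr5:77349240-77408041 on the minus strand. The end of Igfbp7 overlaps Polr2b on the other strand, and Igf1 overlaps an antisense gene, Igf1os. Reads were therefore taken from the column of the gene's own strand. Counting without strand gave Igfbp7 79.7% to 92.5% of its stranded reads and gave the other 8 genes 100% to 102.3%.

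The promoters of the 4 binding protein genes that passed the test in at least 1 comparison are shown because the data turn on them. Each is the RefSeq sequence of the 250 bases before the RefSeq start of the gene in GRCm38.p6, on the gene's strand, with motif matches in capitals. RefSeq and GENCODE starts need not be the same, and the last 19 bases of the Igfbp5 window lie inside the GENCODE gene.
Igfbp3, chr11:7213924-7214173, minus strand: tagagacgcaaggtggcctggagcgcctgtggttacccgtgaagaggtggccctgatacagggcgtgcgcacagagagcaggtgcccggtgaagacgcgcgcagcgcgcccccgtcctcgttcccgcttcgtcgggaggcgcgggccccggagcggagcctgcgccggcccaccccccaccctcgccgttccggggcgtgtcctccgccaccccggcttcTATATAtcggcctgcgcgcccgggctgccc
Igfbp4, chr11:99040994-99041243, plus strand: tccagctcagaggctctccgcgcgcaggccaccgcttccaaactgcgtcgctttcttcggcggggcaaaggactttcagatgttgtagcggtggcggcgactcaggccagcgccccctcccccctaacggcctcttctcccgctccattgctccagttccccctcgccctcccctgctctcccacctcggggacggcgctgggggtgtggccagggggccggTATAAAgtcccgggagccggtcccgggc
Igfbp5, chr1:72874866-72875115, minus strand: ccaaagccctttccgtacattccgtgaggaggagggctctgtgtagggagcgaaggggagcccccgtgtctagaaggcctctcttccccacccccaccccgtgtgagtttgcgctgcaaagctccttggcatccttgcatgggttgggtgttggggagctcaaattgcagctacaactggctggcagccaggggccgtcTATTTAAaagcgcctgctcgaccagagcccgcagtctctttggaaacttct
Igfbp7, chr5:77408046-77408295, minus strand: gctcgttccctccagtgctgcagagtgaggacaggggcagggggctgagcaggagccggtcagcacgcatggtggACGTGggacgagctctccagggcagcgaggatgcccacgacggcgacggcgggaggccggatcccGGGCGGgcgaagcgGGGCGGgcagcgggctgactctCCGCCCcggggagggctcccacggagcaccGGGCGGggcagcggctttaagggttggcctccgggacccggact
The capitals mark TATATA in Igfbp3, with its first base at position -30 from the RefSeq start, the string TATAAA in Igfbp4 at position -28 and TATTTAA in Igfbp5 at position -51. In Igfbp7 they mark 4 matches to GGGCGG, a letter string bound by SP1-type factors, of which 1 lies on the other strand, and 1 match to ACGTG. Searched on both strands, TATATA was present in 5.25% of the 32841 promoter windows of this length, the string TATAAA in 12.4%, TATTTAA in 4.18%, GGGCGG in 32.7% and ACGTG in 16.6%. The CCAAT box was searched as well, as were the insulin response string CAAAACA and the AP-1-type string TGANTCA, and these 4 windows held none of them. The letter strings were chosen after the sequences had been seen, and a match is a description of the sequence, not a binding site.

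Between 12485579 and 20476979 reads per library fell on genes, and all 9 genes were among the 14300 that passed the filter on low counts. Values are given as CPM, counts per 1e+06 reads on genes after TMM scaling, and a change was called at an adjusted p-value under 0.05 over all 14300 genes. Library names carry a number that is written with 3 digits in 5 libraries (replicates 1 and 2 of day 1, replicates 1 to 3 of day 3) and with 1 digit in the other 9. What this format stands for is not given, and it was treated as a possible batch: 35% of all genes differed between the formats within day 1 and 18.5% within day 3. All 4 libraries of day 0 have 1-digit numbers. The 1-digit libraries therefore allow comparisons with day 0 within a format, whereas for the 3-digit libraries against day 0 the format and the day cannot be told apart. As a check of the tissue, all 10 proximal tubule markers had reads on every day, with sums of 42382 to 46706 CPM at day 0, 18381 to 46964 at day 1 and 9104 to 20131 at day 3.

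At day 0 the level per kilobase of exon, the scale on which genes can be compared, placed Igfbp7 first with 787 ± 58.6 CPM per kb (SD, n = 4). Igfbp4 followed with 219 ± 15.1, Igfbp5 with 91.0 ± 10.2 and Igfbp3 with 30.6 ± 2.87. The receptor Igf1r had 14.9 ± 1.71 CPM per kb and Igfbp1 3.97 ± 2.36. These 6 genes kept separate ranges from their neighbours in the order. Igf1 itself (1.11 ± 0.214 CPM per kb), Igfbp2 (0.728 ± 0.689) and Igfbp6 (0.450 ± 0.448) closed the order with overlapping ranges. At day 1 Igfbp3 (136 ± 58.6 CPM per kb, n = 5) stood above Igfbp5 (22.5 ± 5.52) without overlap, the reverse of their order at day 0, and its range overlapped that of Igfbp4 (171 ± 73.4). Igf1 had moved to the last place (0.289 ± 0.0922 CPM per kb), and its range overlapped that of Igfbp6 (0.552 ± 0.214). At day 3 Igfbp7 (566 ± 51.3 CPM per kb) was still first without overlap, and from Igfbp4 through Igfbp3, Igfbp5 and Igf1r down to Igfbp1 each gene overlapped the next.

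**Figure D1:**
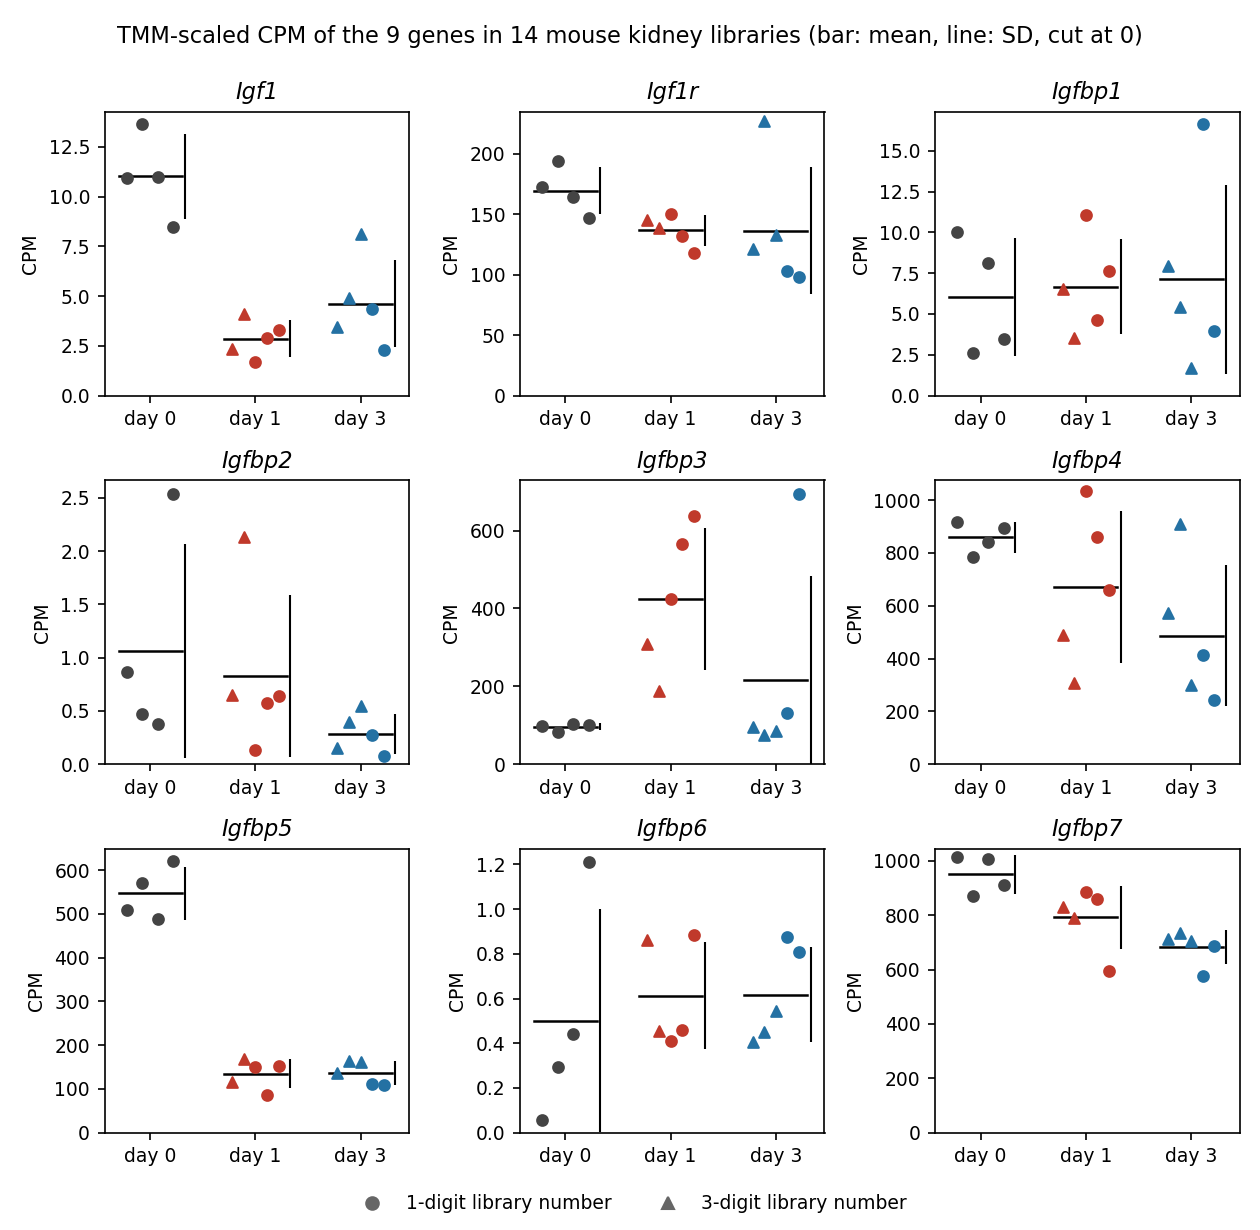
Level of each of the 9 genes in CPM (vertical axes, linear and starting at 0) in the 14 libraries by day. Points are libraries, with circles for 1-digit and triangles for 3-digit library numbers, horizontal bars are means and vertical lines are SDs. Igf1 and Igfbp5 lie below every day 0 library on both later days, and Igfbp3 lies above every day 0 library at day 1.

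Igf1, the ligand, fell after IRI. Its level was 10.9, 13.7, 10.99 and 8.47 CPM in replicates 1 to 4 of day 0, and 2.32, 4.09, 1.70, 2.92 and 3.30 CPM in replicates 1 to 5 of day 1. At day 3 replicates 1 to 5 had 3.46, 4.90, 8.12, 4.37 and 2.28 CPM. Every library of the later days was below every library of day 0, and replicate 3 of day 3 came closest. The fall was 3.83-fold at day 1 (log2 fold change -1.94, SE 0.34, edgeR adjusted p = 0.00067) and 2.37-fold at day 3 (-1.25, SE 0.33, adjusted p = 0.011). These levels rested on 25 to 232 reads a library. Day 3 was higher than day 1 by 0.69 on the log2 scale (SE 0.32), which did not pass the test (edgeR adjusted p = 0.151). Within the 1-digit format the log2 fold changes were -2.06 at day 1 and -1.72 at day 3. The 3-digit libraries, set against the 1-digit libraries of day 0, gave -1.77 and -1.001, and all 4 values passed the edgeR test (adjusted p 0.00038 to 0.0381).

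Igf1r, the receptor, passed the test on neither day with all libraries. It had 173, 194, 164 and 147 CPM in replicates 1 to 4 of day 0 and 146, 139, 150, 132 and 118 CPM in replicates 1 to 5 of day 1, where 4 of 5 libraries lay below day 0. At day 3 it had 121, 228, 133, 103 and 98.1 CPM, so that 4 of the 5 libraries lay below every day 0 library and replicate 2 lay above all of them. The log2 fold change was -0.31 on both days (SE 0.21, edgeR adjusted p = 0.244 at day 1 and 0.259 at day 3). Without replicate 2 of day 3 the day 3 value was -0.57 and passed the test (adjusted p = 0.00486), as it did with the number format as a term (-0.57, adjusted p = 0.0462).

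Among the 9 genes, 3 changed at day 1, of which 1 rose (Igfbp3) and 2 fell (Igf1 and Igfbp5). That is 33.3%, beside 42.1% of all 14300 genes tested (23.3% higher and 18.7% lower). The same 3 genes were those with no overlap between day 1 and day 0, beside 42% of all genes. At day 3 Igf1, Igfbp5 and Igfbp7 fell and none rose, again 3 of 9 and beside 33.3% of all genes (19.5% higher and 13.8% lower), and the same 3 did not overlap with day 0, beside 33.4%. The median log2 fold change of the 9 genes was -0.31 at day 1 and -0.48 at day 3, beside 0.01 and 0.05 over all genes tested. The shares called were thus no higher than those of all genes. Both comparisons use the same day 0 libraries. Between day 3 and day 1, edgeR called 0 of the 9 genes, beside 15.9% of all genes, with 1 at an unadjusted p under 0.05 (Igf1), and DESeq2 also called 0.

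**Figure D2:**
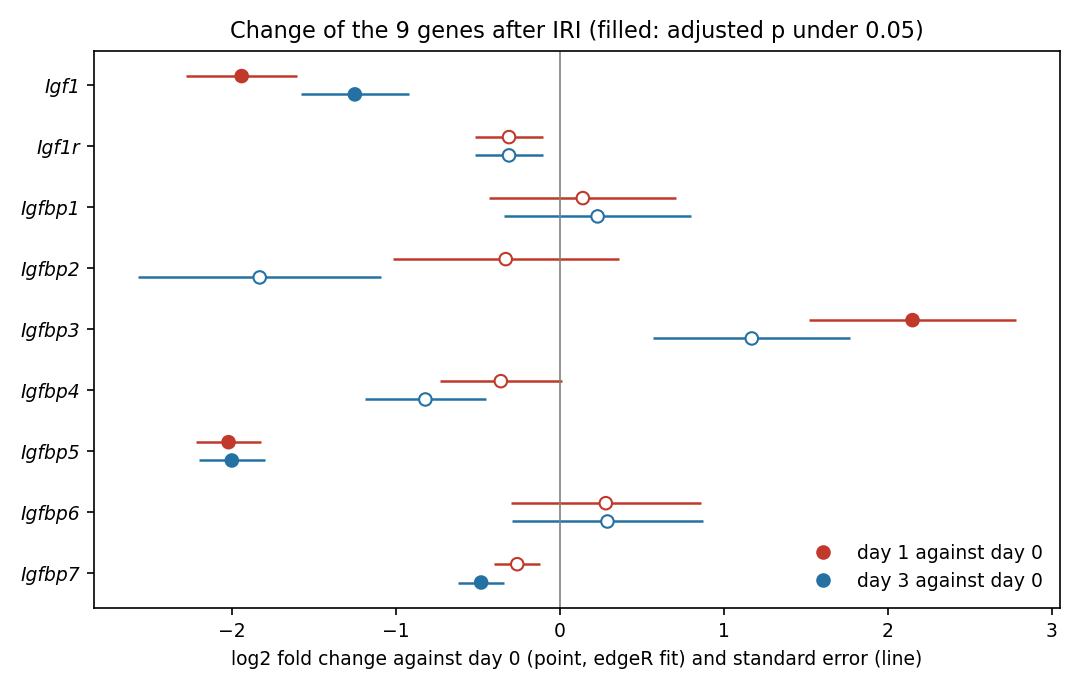
Log2 fold change of each of the 9 genes (horizontal axis) at day 1 and day 3 against day 0. Points are estimates of the edgeR fit, lines are standard errors and filled points had an adjusted p under 0.05. Igfbp5 sits near -2 on both days, and Igfbp3 lies at 2.15 at day 1.

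Igfbp5, a binding protein held in the extracellular matrix as well as in the ternary complex, fell on both days. It had 508, 570, 487 and 622 CPM in replicates 1 to 4 of day 0. Replicates 1 to 5 of day 1 had 117, 169, 151, 86.5 and 152 CPM, and those of day 3 had 135, 164, 162, 112 and 108 CPM. No library of the later days came near the lowest of day 0. The fall was 4.05-fold at day 1 (log2 fold change -2.02, SE 0.20, edgeR adjusted p = 1.39e-05) and 4.01-fold at day 3 (-2.005, SE 0.20, adjusted p = 1.5e-05). Day 3 and day 1 differed by 0.01 on the log2 scale (SE 0.18, edgeR adjusted p = 0.97). Within the 1-digit format the log2 fold changes were -2.07 at day 1 and -2.31 at day 3, and the 3-digit libraries against day 0 gave -1.94 and -1.83.

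Summed levels of markers of distal nephron segments were lower over the same days. Counts of markers called, here and in the marker lists below, stand beside 42.1% of all genes at day 1 (23.3% higher and 18.7% lower). At day 3 the share of all genes was 33.3% (19.5% higher and 13.8% lower). Between formats it was 35% within day 1 and 18.5% within day 3, and no marker list was tested against other genes. The summed level of 6 thick limb and distal tubule markers spanned 8733 to 11466 CPM at day 0, 3374 to 6526 at day 1 and 2174 to 3327 at day 3, with 4 of 6 lower at day 1 and 6 of 6 at day 3. The 6 collecting duct markers summed to 780 to 1052, 365 to 778 and 228 to 735 CPM, with 2 and 4 of 6 lower. In replicate 3 of day 3 the thick limb and distal tubule marker Pvalb was at 0 reads, and every other marker of both lists had reads in every library. The 6 hepatocyte markers, read because the liver is a source of Igf1, summed to 55.9 to 177.5 CPM at day 0, 14.4 to 47.95 at day 1 and 5.50 to 19.1 at day 3. Of the 4 that passed the filter, only Apob was called at day 1 (log2 fold change -5.45, edgeR adjusted p = 0.000362), and the other 3 had values above 0 that did not pass (Alb 1.84, Apoa2 0.55 and Apoh 0.14), with a list median of 0.34. At day 3, 3 of the 4 were lower, and the list median was -2.19. Serpina3k was at 0 reads in every day 0 library, and Ahsg in replicates 1, 3 and 4 of day 0. The part of the RNA of these cells in the Igfbp5 and Igf1 levels was not tested, and in whole kidney fewer cells of a type and less RNA per cell cannot be told apart.

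Igfbp3, the main carrier of IGF1 in blood, which endothelial cells also make, rose at day 1. It had 96.9, 83.0, 104 and 99.7 CPM in replicates 1 to 4 of day 0, and 309, 187, 424, 565 and 637 CPM in replicates 1 to 5 of day 1. Every day 1 library lay above every day 0 library. The rise was 4.43-fold (log2 fold change 2.15, SE 0.63, edgeR adjusted p = 0.0139). Within the 1-digit format the log2 fold change was 2.50 (SE 0.39, edgeR adjusted p = 0.000145, 3 libraries of day 1). The 2 libraries with 3-digit numbers against day 0 gave 1.37 (SE 0.42, edgeR adjusted p = 0.019).

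At day 3 Igfbp3 had 94.2, 75.6, 86.0, 131 and 694 CPM in replicates 1 to 5. Of the 3 libraries with 3-digit numbers, replicates 1 and 3 lay inside the range of day 0 and replicate 2 lay below it. Replicate 4 was above it, and replicate 5 was the highest of all 14 libraries. The mean was 216 ± 268 CPM (SD, n = 5), and the log2 fold change of 1.17 (SE 0.60) did not pass the test (edgeR adjusted p = 0.146). With the number format as a term it was 1.79 and passed (edgeR adjusted p = 0.00369), with the replicate block it was 0.17 (adjusted p = 0.727), and without replicate 5 it was 0.03 (adjusted p = 0.961). Against day 1 the log2 fold change of day 3 was -0.97 (SE 0.56, edgeR adjusted p = 0.243), and without replicate 5 it was -2.16 and passed the test (adjusted p = 0.000928). It also passed with the replicate block (-1.50, edgeR adjusted p = 0.015) and with only 3-digit libraries of days 1 and 3 (-1.54, adjusted p = 0.00236). With only 1-digit libraries it did not pass (edgeR adjusted p = 0.541). Within day 3 the 3-digit libraries were 4.84-fold lower than the 1-digit ones (log2 fold change -2.27, SE 0.46, edgeR adjusted p = 0.00842), and this too rested on replicate 5, without which the value was -0.64 (adjusted p = 0.193).

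Endothelium and smooth muscle markers were read beside Igfbp3. The summed level of 10 endothelium markers, all with reads on every day, spanned 441 to 553 CPM at day 0, 537 to 721 at day 1 and 267 to 1083 at day 3. The highest sum, 1083 CPM, was that of replicate 5 of day 3, the library with the most Igfbp3. At day 3 replicate 2 held both the lowest sum of all, 267 CPM, and the least Igfbp3. Replicate 4 of day 3 went the other way. Its sum of 683 CPM lay inside the day 1 range, while its 131 CPM of Igfbp3 lay below every day 1 library. At day 1, 2 of the 10 markers rose and 2 fell, and at day 3 edgeR called 0 of 10. In the 1-digit libraries against day 0, 5 rose and 2 fell at day 1, beside 58.5% of all genes called. At day 3, 7 rose and 0 fell in them, beside 53.7%. In the 3-digit libraries 3 rose and 2 fell at day 1 (beside 41.6%), and 0 rose and 2 fell at day 3 (beside 32.4%). Within day 3, 7 of the 10 were lower in the 3-digit libraries, beside 18.5% of all genes that differed between formats. The 8 smooth muscle markers summed to 144 to 173 CPM at day 0, 311 to 584 at day 1 and 294 to 966 at day 3, without overlap with day 0, and 3 of 8 rose at day 1 and 4 at day 3. At day 3 their sums were highest in replicates 4 and 5 (966 and 785 CPM), the libraries with the most Igfbp3, whereas at day 1 they were highest in replicates 1 and 2 (584 and 499 CPM), those with the least. Actg2 was at 0 reads in replicate 4 of day 1 and replicate 5 of day 3. The part of endothelial or smooth muscle RNA in the Igfbp3 level was not tested.

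**Figure D3:**
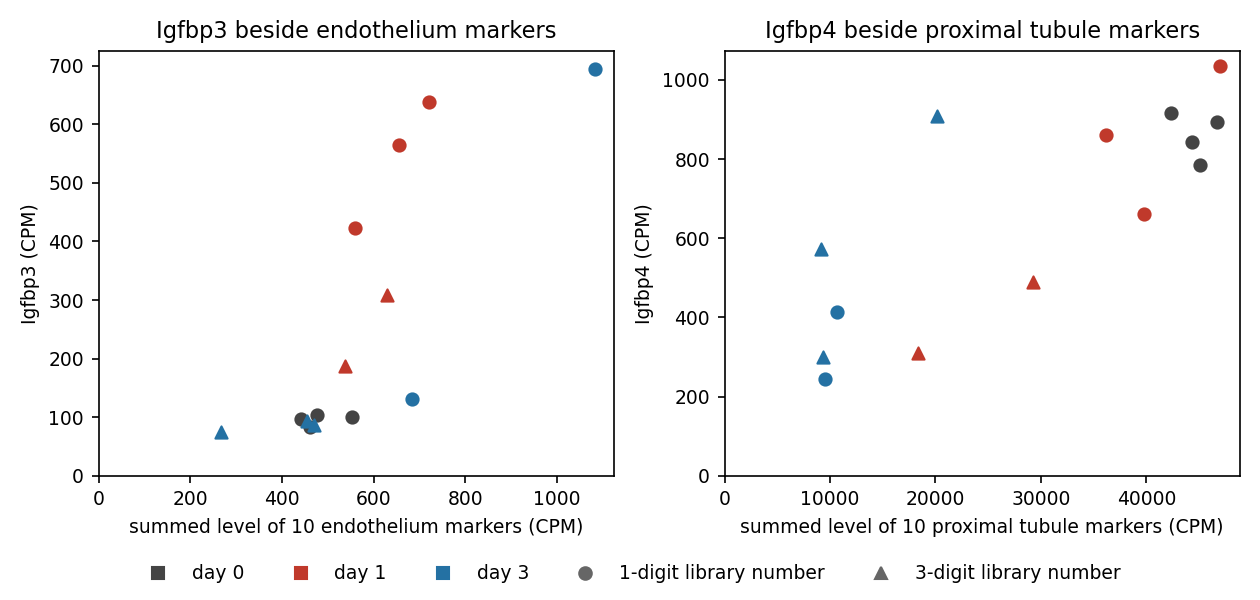
Left, Igfbp3 (CPM) against the summed CPM of 10 endothelium markers. Right, Igfbp4 (CPM) against the summed CPM of 10 proximal tubule markers. Points are the 14 libraries, coloured by day, with circles for 1-digit and triangles for 3-digit library numbers, and all axes are linear and start at 0. Replicate 5 of day 3 stands at 1083 CPM of endothelium markers and 694 CPM of Igfbp3, and replicate 4 of day 3 at 683 and 131 CPM.

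Igfbp4, which holds IGF back from its receptor until the protease PAPP-A cuts it, had a wider range of levels after IRI than at day 0. It had 918, 784, 843 and 893 CPM in replicates 1 to 4 of day 0, and 489, 309, 1034, 860 and 661 CPM in replicates 1 to 5 of day 1. At day 3 it had 572, 908, 300, 413 and 243 CPM. On both days the libraries overlapped those of day 0, and neither the day 1 value (log2 fold change -0.36, SE 0.37, edgeR adjusted p = 0.451) nor the day 3 value (-0.82, SE 0.37, adjusted p = 0.1) passed the test. Without replicate 2 of day 3 the day 3 value was -1.17 and passed it (adjusted p = 0.0138). The log2 fold change of day 3 against day 1 was -0.46 (SE 0.35, edgeR adjusted p = 0.387).

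The number format difference of Igfbp4 had opposite signs on the 2 days. At day 1 the 3-digit libraries (309 and 489 CPM) lay below the 1-digit ones (661 to 1034 CPM) with a log2 fold change of -1.09 (SE 0.38, edgeR adjusted p = 0.0406). Igfbp4 was the only one of the 9 genes called there (11.1%, beside 35% of all genes), and the call was lost when any 1 of 7 libraries (replicates 1 to 3 of day 0 and 1 to 4 of day 1) was left out, with values from -1.48 to -0.80. At day 3 the 3-digit libraries were higher by 0.85 on the log2 scale (SE 0.38), which did not pass the test (edgeR adjusted p = 0.125). There the only gene called was Igfbp3, beside 18.5% of all genes. The difference between the format effects of the 2 days was 1.95 for Igfbp4 (SE 0.54, edgeR adjusted p = 0.0254), again the only call among the 9 and beside 17.6% of all genes. That call was lost without replicate 2 or 3 of day 1 or replicate 5 of day 3, with values of 1.65, 1.79 and 1.60. For Igfbp3 the same difference was -1.15 (SE 0.64, edgeR adjusted p = 0.233).

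Proximal tubule markers were read beside Igfbp4. Of the 10 markers, 5 were lower in the 3-digit libraries at day 1, where their sums were 29259 and 18381 CPM against 36211 to 46964 in the 1-digit libraries, and 5 were higher in them at day 3. By the sums, the 3-digit libraries of day 3 had 9104, 20131 and 9340 CPM and the 1-digit ones 10656 and 9505 CPM, so only replicate 2 lay above the 1-digit libraries. Replicate 2 had 908 CPM of Igfbp4, and the other 4 libraries had sums of 9104 to 10656 CPM and 243 to 572 CPM of Igfbp4. Against day 0, 3 of the 10 markers were lower at day 1 and 4 at day 3, beside 42.1% and 33.3% of all genes called. The part of proximal tubule RNA in the Igfbp4 level was not tested.

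Igfbp7, the most abundant of the 9 genes, fell by a small amount at day 3. It had 1013, 870, 1008 and 913 CPM in replicates 1 to 4 of day 0, 832, 791, 886, 858 and 594 CPM in replicates 1 to 5 of day 1, and 713, 735, 706, 577 and 687 CPM in those of day 3. Day 3 lay wholly below day 0, while at day 1 replicate 3 overlapped it. The day 1 log2 fold change was -0.26 (SE 0.14, edgeR adjusted p = 0.143). The day 3 fall was 1.39-fold (log2 fold change -0.48, SE 0.14, edgeR adjusted p = 0.019). It no longer passed with total counts in place of TMM scaling (-0.33, adjusted p = 0.0919) or with the replicate block (-0.43, adjusted p = 0.067). Nor did it pass without replicate 1 or replicate 3 of day 0 (-0.45 each, edgeR adjusted p = 0.058 and 0.0577). In the 1-digit libraries of day 3 it was -0.59 (edgeR adjusted p = 0.0109) and in the 3-digit ones -0.41 (adjusted p = 0.0515).

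Igfbp1, which the liver secretes when insulin is low and which hypoxia induces, ranged widely within every day. It had 10.01, 2.59, 8.15 and 3.45 CPM in replicates 1 to 4 of day 0, 6.52, 3.54, 11.04, 4.63 and 7.64 CPM in replicates 1 to 5 of day 1, and 7.94, 5.41, 1.68, 16.6 and 3.97 CPM in those of day 3. The highest library of day 3 had 9.87 times the level of the lowest. The log2 fold changes were 0.14 at day 1 (SE 0.57, edgeR adjusted p = 0.86) and 0.23 at day 3 (SE 0.57, adjusted p = 0.776), and the 3 days overlapped.

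Igfbp2, a fetal-type binding protein, and Igfbp6, which prefers IGF2, were near the limit of detection. Igfbp2 had 0.863, 0.471, 0.379 and 2.54 CPM in replicates 1 to 4 of day 0 and 0.647, 2.14, 0.136, 0.572 and 0.644 CPM in replicates 1 to 5 of day 1. At day 3 it had 0.153, 0.394, 0.545, 0.269 and 0.0735 CPM. These levels rested on 1 to 47 reads a library. The day 3 log2 fold change of -1.83 (SE 0.74) did not pass the test (edgeR adjusted p = 0.0695), nor did the day 1 value of -0.33 (SE 0.69, adjusted p = 0.723). The day 3 value was -0.95 without replicate 4 of day 0 (adjusted p = 0.349), the library with the most Igfbp2. It passed without replicate 2 of day 1 in the fit (-1.83, edgeR adjusted p = 0.0411), with the format as a term (-2.84, adjusted p = 0.0115) and by DESeq2 (-1.89, adjusted p = 0.0477). The 2 libraries with the most Igfbp2, replicate 4 of day 0 and replicate 2 of day 1, also had the highest sums of 7 urothelium markers, 82.6 and 122 CPM. In the other 12 libraries these sums ranged from 3.89 to 53.0 CPM. The 53.0 CPM was that of replicate 4 of day 3, which had only 0.269 CPM of Igfbp2, below every day 0 library. By edgeR, 0 of the 7 markers changed at day 1 and 1 fell at day 3. Among these markers Upk1b, Upk2 or Upk3a was at 0 reads in 1 library of day 1 (replicate 4) and 4 libraries of day 3 (all but replicate 3). The part of urothelial RNA in the Igfbp2 level was not tested.

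Igfbp6 had 0.0575, 0.294, 0.442 and 1.21 CPM in replicates 1 to 4 of day 0. It had 0.409 to 0.885 CPM at day 1 and 0.407 to 0.874 CPM at day 3, all inside the range of day 0. With 1 to 20 reads a library, its log2 fold changes of 0.28 at day 1 (SE 0.58, edgeR adjusted p = 0.714) and 0.29 at day 3 (SE 0.58, adjusted p = 0.725) did not pass the test. The day 0 libraries themselves spanned a 21.03-fold range.

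The make-up of the binding protein transcripts, on the scale of CPM per kilobase, was compared by day. Igfbp3 held 2.70% ± 0.156 (SD, n = 4) of the sum of all 7 at day 0, 13.6% ± 5.98 (n = 5) at day 1 and 8.42% ± 9.59 at day 3. The day 3 mean rests on replicate 5 with 25.4%, and replicates 1 to 4 held 3.79%, 2.70%, 3.83% and 6.38%. Igfbp5 held 8.08% ± 1.24, 2.35% ± 0.809 and 2.91% ± 0.608, and Igfbp4 held 19.3% ± 0.784, 16.8% ± 5.24 and 15.6% ± 7.24. The ratio of Igfbp3 to Igfbp5 per kilobase was 0.280 to 0.408 at day 0, 2.12 to 12.5 at day 1 and 0.888 to 12.3 at day 3, so that every later library lay above every day 0 library. Igfbp7 made up most of the sum throughout, with 69.4% ± 1.74, 66.7% ± 9.65 and 72.3% ± 6.33. The sum itself spanned 1043 to 1194 CPM per kb at day 0, 825 to 1164 at day 1 and 655 to 895 at day 3, where it did not overlap day 0. Shares of a fixed total are tied to each other, and these shares were not tested.

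**Figure D4:**
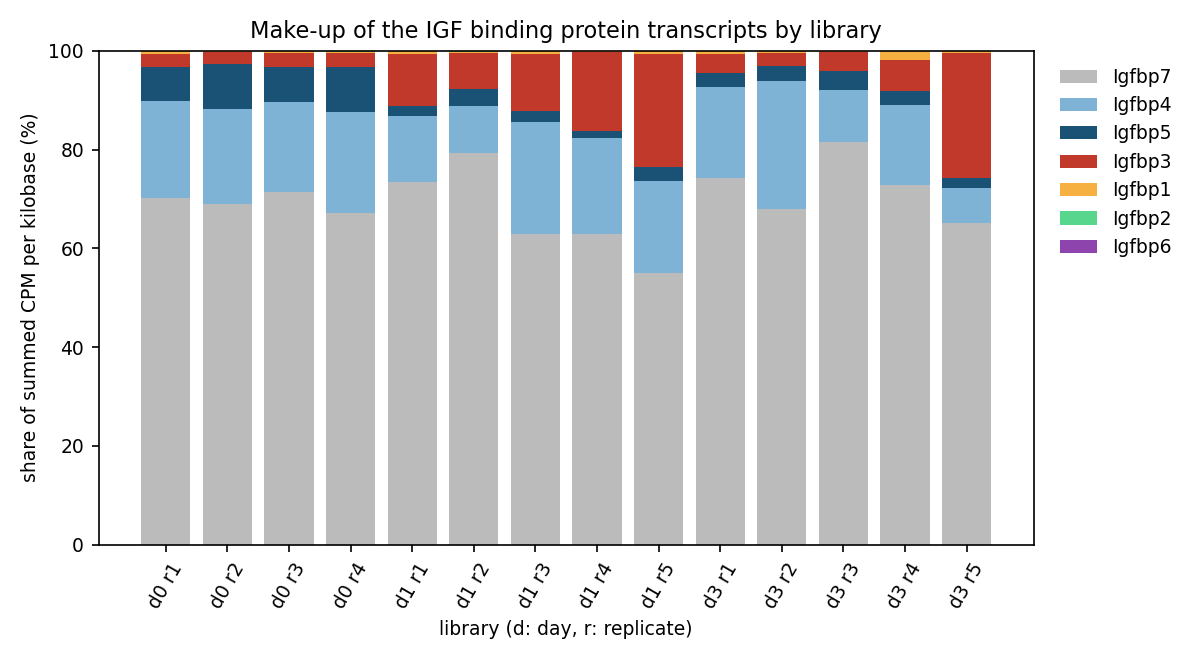
Share of each IGF binding protein in the summed CPM per kilobase of all 7 (vertical axis, percent) in each of the 14 libraries (horizontal axis, d for day and r for replicate). The Igfbp3 segment holds 2.54% to 2.84% at day 0, 7.24% to 22.8% at day 1 and 2.70% to 25.4% at day 3.

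Within the 1-digit format, 3 of the 9 genes changed at day 1 (beside 58.5% of all genes) and 6 of 9 at day 3 (beside 53.7%). In the 3-digit libraries against the 1-digit libraries of day 0, the counts were 4 of 9 (beside 41.6%) and 2 of 9 (beside 32.4%). The 3-digit libraries of day 1 added Igfbp4, which was lower than at day 0 (log2 fold change -1.11, SE 0.37, edgeR adjusted p = 0.0285), whereas its value in the 1-digit libraries was -0.01 (SE 0.31, adjusted p = 0.974). The 1-digit libraries of day 3 added Igfbp3 (2.11, SE 0.42, edgeR adjusted p = 0.00111), Igfbp4 (-1.39, SE 0.37, adjusted p = 0.00728) and Igf1r (-0.75, SE 0.22, adjusted p = 0.0118). The Igfbp3 call rests on 2 libraries at 131 and 694 CPM, of which replicate 4 at 131 CPM lay near the 83.0 to 104 CPM of day 0. In the 3-digit libraries of day 3 Igfbp3 was at -0.17 (SE 0.39, edgeR adjusted p = 0.77) and Igf1r at -0.08 (SE 0.19, adjusted p = 0.777). The format effect within day 3 was 0.67 for Igf1r (SE 0.23, edgeR adjusted p = 0.0574), 0.48 for Igfbp5 (SE 0.23, adjusted p = 0.157) and 0.72 for Igf1 (SE 0.42, adjusted p = 0.235). Within day 1 it was 0.09, 0.14 and 0.29 for the same genes, and none of these passed the test.

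The growth hormone axis, which drives Igf1, was read from 6 genes, of which 2 rose and 2 fell at day 1, and 1 rose and 2 fell at day 3. The counts of this and the following pathway lists stand beside 42.1% of all genes called at day 1 (23.3% higher and 18.7% lower) and 33.3% at day 3 (19.5% higher and 13.8% lower), and no list was tested against other genes. Ghr, the growth hormone receptor, had 884 to 1219 CPM at day 0, 249 to 359 at day 1 and 164 to 319 at day 3, a log2 fold change of -1.87 (SE 0.19, edgeR adjusted p = 1.79e-05) and -2.10 (SE 0.19, adjusted p = 8.2e-06). Stat5b, which carries its signal to the nucleus, fell by 0.69 and 0.45 on the log2 scale (SE 0.15 each, edgeR adjusted p = 0.00221 and 0.0289). Socs2, a feedback inhibitor of the receptor, rose by 1.70 (SE 0.31) and 1.48 (SE 0.30, edgeR adjusted p = 0.000856 and 0.00261).

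Of the 6 genes that cut binding proteins, restrain the cutting or complete the ternary complex, 5 passed the filter. At day 1, 2 of these fell and none rose, and at day 3 edgeR called 0 of 5. In the 1-digit libraries against day 0, 4 of the 5 fell at day 1 and 3 at day 3, beside 58.5% and 53.7% of all genes called. In the 3-digit libraries 1 fell at day 1 and 1 rose at day 3, beside 41.6% and 32.4%. Igfals, the acid-labile subunit, had 7.71 to 12.3 CPM at day 0 and 2.23 to 6.04 at day 1 (log2 fold change -1.24, SE 0.37, edgeR adjusted p = 0.0145). Pappa2, a protease of IGFBP3 and IGFBP5, had 1.09 to 2.24 CPM at day 0 and 0 to 0.409 at day 1 (-2.88, SE 0.90, edgeR adjusted p = 0.0194), and 0.202 to 7.72 at day 3.

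Among the other IGF ligand and receptors, 1 of 4 fell on each day. At day 1 this was Insr, the insulin receptor, from 108 to 114 CPM at day 0 to 50.9 to 79.3 CPM (log2 fold change -0.75, SE 0.16, edgeR adjusted p = 0.00217), and at day 3, when its range was 89.8 to 144 CPM, it was at 0.17 (adjusted p = 0.425). At day 3 it was Insrr, the insulin receptor-related receptor, from 24.6 to 33.3 CPM at day 0 to 1.47 to 13.4 CPM (-2.11, SE 0.55, edgeR adjusted p = 0.0106). At day 1 Insrr had 3.34 to 20.6 CPM, also below every day 0 library, but just missed the threshold (-1.40, SE 0.54, edgeR adjusted p = 0.0519). Of the 6 receptor adaptors, 1 rose and 1 fell on each day. Irs1, the docking protein of both receptors, fell by 1.28 (SE 0.20, edgeR adjusted p = 0.000321) at day 1 and by 0.74 (SE 0.20, adjusted p = 0.0115) at day 3 on the log2 scale. Shc1, which links them to RAS, rose by 1.14 (SE 0.21, edgeR adjusted p = 0.00087) and 0.64 (SE 0.20, adjusted p = 0.0257).

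Of 17 genes of the PI3K, AKT and FOXO pathway, 1 rose and 6 fell at day 1, and 1 rose and 2 fell at day 3, with median log2 fold changes of -0.32 and -0.08. The 7 of 17 called at day 1 are close to the 42.1% of all genes, and the 3 of 17 at day 3 are below the 33.3%. The kinase gene Akt1 rose on both days, by 0.84 and 0.82 on the log2 scale (SE 0.20 each, edgeR adjusted p = 0.00525 and 0.00802). Pik3r2, a regulatory subunit of PI3K, fell by 0.65 at day 1 (SE 0.19, edgeR adjusted p = 0.0125), and Pik3ca, a catalytic subunit, fell by 0.62 at day 3 (SE 0.17, adjusted p = 0.0114). Pik3r2 at day 3 (-0.31, SE 0.19, edgeR adjusted p = 0.206) and Pik3ca at day 1 (-0.40, SE 0.17, adjusted p = 0.063) did not pass.

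Of 12 further genes whose proteins carry an IGFBP-like domain, 10 passed the filter, and 5 of these rose and none fell at day 1, with 3 up and none down at day 3. The shares called, 5 of 10 and 3 of 10, are near the 42.1% and 33.3% of all genes. Cyr61, a matricellular early response gene, had 12.95 to 20.1 CPM at day 0, 381 to 776 at day 1 and 53.4 to 163 at day 3 (log2 fold change 4.96, SE 0.39, and 2.71, SE 0.35, edgeR adjusted p = 2.71e-06 and 0.000134). Ctgf, its relative, rose by 3.14 (SE 0.52, edgeR adjusted p = 0.000495) and 2.04 (SE 0.50, adjusted p = 0.00696). Cyr61 and Ctgf bind IGF weakly if at all and are better known for matrix and integrin functions.

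**Figure D5:**
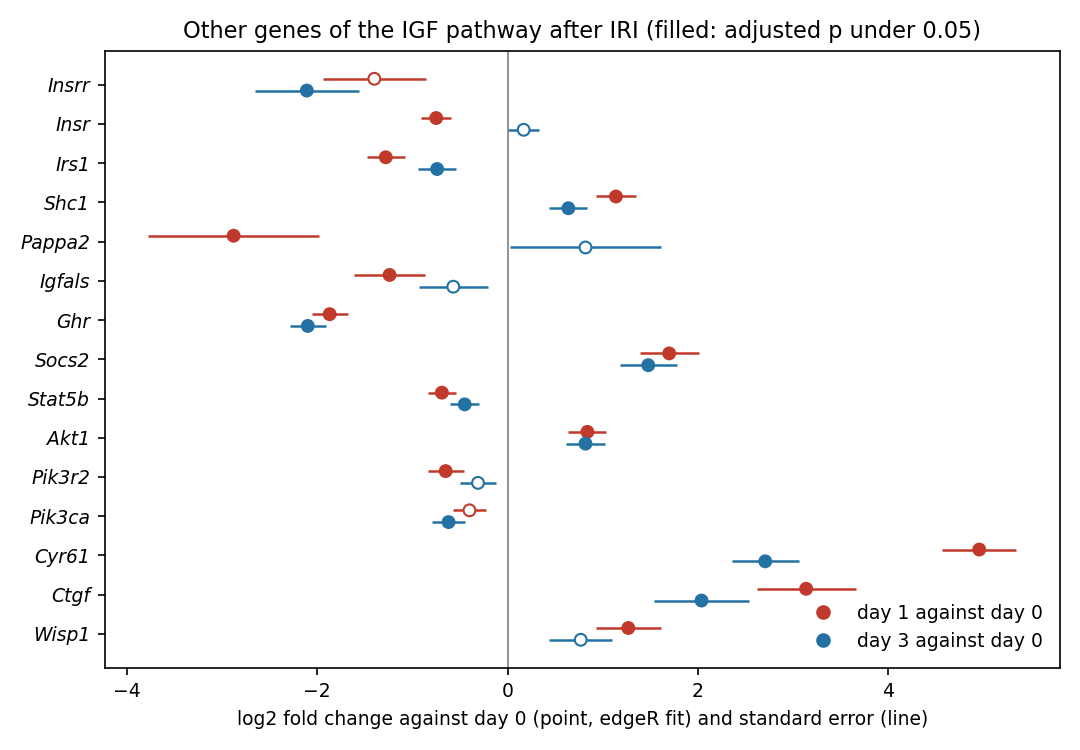
Log2 fold change at day 1 and day 3 against day 0 (horizontal axis) of the pathway genes named by a fixed rule. Points are estimates of the edgeR fit, lines are standard errors and filled points had an adjusted p under 0.05. Cyr61 reaches 4.96 at day 1, and Ghr lies near -2 on both days.

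The genes whose log2 CPM ran most alike with each member over the 14 libraries were sought among 10977 genes with a mean of at least 5 CPM. For Igfbp3 these were Tm4sf1 (Pearson r = 0.975) and Efnb1 (0.968), and the r stayed at 0.959 and 0.937 once the mean of each day was taken out. Igfbp4 ran with Ctsa (0.960, and 0.966 within days) and Idh3b (0.955 and 0.938). Igf1 ran with Id4 (0.941) and Sim1 (0.936), and Igfbp5 with Agtpbp1 (0.965) and Inpp5j (0.964), and within days these fell to between 0.706 and 0.734. Igf1r ran with Sh3bp5l (0.916) and Igfbp7 with Ptms (0.933). Igfbp2 ran with Proser2 (0.925) and Gata3 (0.874). For Igfbp1 and Igfbp6 the highest values were lower, 0.839 with Dera and 0.802 with 2010107G23Rik. The 14 points share the day, the number format and the cell make-up of each library, so these values are a description. Between members, Igf1 and Igfbp5 had r = 0.84 over all libraries and 0.37 within days, and Igf1 and Igfbp3 had -0.77 and -0.62.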

How the data were processed

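Kidney RNA was extracted with TRIzol and libraries followed an Illumina TruSeq kit. Per the submitters' processing notes, reads were trimmed with Trimmomatic and aligned with STAR to mm10, and versions and annotation are not given in the sources used here. The authors deposited raw STAR read counts per gene symbol, unstranded and for each strand. The column of the opposite strand held 98.5% to 98.75% of the strand-assigned reads and was used. The lines of STAR's output for reads on no single gene made up 28.99% to 38.34% of a library and were left out. Only uniquely mapped reads are counted by STAR, which lowers genes with near-identical copies. Replicate pairs differed beyond counting noise (chi-square per degree of freedom 5.94 to 241 over 26 pairs), so each library counted once.

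The tests used edgeR 4.0.16 under R 4.3.3 (filterByExpr, TMM, quasi-likelihood test over all 14 libraries with 1 term per day, or per day and number format, Benjamini-Hochberg adjustment over 14300 genes). The Wald test of DESeq2 1.42.0 was run as an alternative. The scripts were tested on simulated data with known changes at day 1 only and no difference between number formats, so that test does not cover the format fits. CPM are TMM-scaled, log2 CPM used a prior count of 2, and CPM per kb used the union of GENCODE exons. RefSeq promoters were matched by symbol for 9 of 9 genes. All 9 genes are given in full. Of every other pathway list at most 3 genes are named, those called in a comparison with day 0, with a mean of at least 1 CPM, no overlap of groups and the largest change. The members and lists were chosen with earlier results of these data known, so no count of them is independent support. Cell type markers came from general knowledge. Alternatives were the unstranded column, RLE factors, no TMM, no filter on low counts, a minimum of 10 counts in each library, DESeq2, a minimum log2 fold change of 1 in size, only the 2 days compared, a replicate block, the format as a term, libraries of a single number format after IRI against all of day 0, and leaving out each library.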

Additional observations from a re-analysis of the deposited data

Results flagged for a closer look

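In 27 sets of libraries of 1 day (9 genes on 3 days), 3 had a library far from the others, where chance gives about 1 in 20, or 1.35 of 27. Igfbp3 in replicate 5 of day 3 was at 694 CPM, with the other 4 libraries at 75.6 to 131 CPM. Igfbp7 in replicate 5 of day 1 was lowest at 594 CPM, with the others at 791 to 886 CPM. Igfbp7 in replicate 4 of day 3 was lowest at 577 CPM, with the others at 687 to 735 CPM. Replicate 5 of day 3 also had the highest sum of endothelium markers (1083 CPM) and a smooth muscle marker sum of 785 CPM, and their part in the Igfbp3 value was not tested. The difference between 3-digit and 1-digit libraries was not the same at day 3 and day 1 for Igfbp4, by 1.95 on the log2 scale (SE 0.54, edgeR adjusted p = 0.0254).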

How the results depend on the processing

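Over the 11 alternatives run for single genes (a minimum log2 fold change was applied only to counts of all genes) and over single libraries left out, Igf1 and Igfbp5 kept their fall on both days and Igfbp3 its rise at day 1, all past the threshold on the adjusted p-value (with 1 library left out, Igf1 -2.11 to -1.80 and -1.58 to -1.06, Igfbp5 -2.11 to -1.89 and -2.11 to -1.92, Igfbp3 1.96 to 2.33). The values of opposite sign under an alternative all missed the threshold, as did their main values. With only 3-digit libraries of days 1 and 3, log2 fold changes against day 0 turned to -0.27 for Igfbp1 on both days, 0.40 for Igfbp2 at day 1, -0.17 for Igfbp3 and -0.09 for Igfbp6 at day 3, and Igfbp4 was at 0.57 for day 3 against day 1. With only 1-digit libraries, Igfbp4 was at 0.02 at day 1 and Igfbp5 at -0.25 for day 3 against day 1, where Igfbp5 was also below 0 with RLE factors (-0.0085), DESeq2 (-0.0083) and the format as a term (-0.07). With 1 library left out, ranges that crossed 0 were -0.12 to 0.49 and -0.35 to 0.59 for Igfbp1, -1.07 to 0.56 for Igfbp2 at day 1, -0.09 to 1.19 for Igfbp6 on both days, -0.11 to 0.11 for Igfbp5 at day 3 against day 1, -0.18 to 0.62 for Igf1 and -0.15 to 0.37 for Igfbp5 between formats of day 1, and -1.90 to 0.50 for Igfbp3 between format effects.

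Asking for a log2 fold change of 1 or more in size, 2963 genes were called at day 1, 2597 at day 3 and 921 between them. With only 1-digit libraries 8119 were called at day 3 and 5194 between day 3 and day 1, and with only the 2 days compared 831 between these. Members called at day 3 were 6 with the format as a term or only 1-digit libraries, and 2 to 5 with 1 library left out (5 without replicate 2 of day 3). For day 3 against day 1, 1 member was called with only 1-digit libraries (Igfbp4, -1.39), with only 3-digit ones (Igfbp3, -1.54) or without replicate 5 of day 3 (0 to 1). Without a library, genes called ranged from 1269 to 3350 for day 3 against day 1, 1997 to 5602 between formats of day 1 (lowest without its replicate 2), 91 to 4771 between formats of day 3 (lowest without its replicate 5) and 1260 to 3148 between format effects, and members from 0 to 2 in each of the last 3. Between formats of day 1 DESeq2 called 2 members and total counts without TMM 0, and between formats of day 3 each called 2. Without TMM the median log2 fold change of all genes was 0.19 at day 3, 0.17 for day 3 against day 1 and 0.24 between formats of day 1, and the share of called genes that were higher moved from 58.5% to 73.8%, from 53.6% to 77.9% and from 53.1% to 73.1%, and from 51.9% to 35% between format effects. The causes were not tested.

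Replicate numbers did not pair the libraries: same-numbered libraries deviated together with r over 0.1 in 4 of 13 pairs (-0.175 to 0.261). With the replicate block 5162 genes were called at day 1, 4103 at day 3 and 2044 between them, Igfbp7 missed the threshold at day 3 (-0.43, edgeR adjusted p = 0.067), and 1 member, Igfbp3, passed for day 3 against day 1 (-1.50, adjusted p = 0.015). Read depth was lowest for Igfbp2 and Igfbp6, at 1 to 47 reads a library, and their levels also spread widely at day 0.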
